A study of Mus musculus with 6 samples.

Results

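Matrix metalloproteinases (Mmp), ADAMTS proteases, the protease-dead ADAMTS-like proteins (Adamtsl) and the tissue inhibitors of metalloproteinases (Timp) form the main enzyme and inhibitor system that turns over extracellular matrix. The 46 genes described here were found by symbol among the 22432 rows of the authors' deposited table. GENCODE M21 lists 50 protein-coding genes with symbols of these families, and Adamts13, Mmp12, Mmp20 and Mmp7 were not analysed here. The 46 are 19 Mmp, 18 Adamts, 5 Adamtsl and 4 Timp genes. Total RNA had been sequenced from cultured male mouse germline stem cells kept on DR4 mouse embryonic fibroblasts in a medium with GDNF and FGF. The cells had been sorted into CDH1+/THY1+ and CDH1-/THY1+ populations, with 3 samples each. In both populations the samples carry the culture names RP7 (8 weeks old, strain label OCT4/GFP; Dox-OCT4), RP5 (19 days, same strain label) and WT1 (5 weeks, C57BL/6), all at passage 6 to 8. Every sample thus came from cultures with feeder fibroblasts, and the labels do not give how many mice stood behind a culture.

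Mmp and Adamts enzymes are made with a propeptide that keeps the catalytic zinc ion out of reach of substrates until the propeptide is cut off. Timp proteins plug the active site, and Timp2 also takes part in the activation of pro-Mmp2 by the membrane-bound Mmp14. In the testis these proteins act mostly at the border of somatic cells and basement membrane, while fibroblasts, the feeder cell type of these cultures, are a major source of them in culture.

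The zinc ion is held by a short stretch of the catalytic domain with 3 histidines. A stretch of 11 codons (histidine at codons 1, 5 and 11, glutamate after the first histidine, glycine or asparagine at codon 8) was searched for in the longest coding sequence of each member. It was present in 19 of 19 Mmp and 17 of 18 Adamts genes, and in 0 of 5 Adamtsl and 0 of 4 Timp genes. Codon 8 was glycine in all 19 Mmp genes and in 12 Adamts genes. It was asparagine in 5, the proteoglycanases Adamts1, Adamts4, Adamts9, Adamts15 and Adamts20. The search had no match in Adamts8, which is listed among the proteoglycanases. A missing match alone therefore does not show that a member is protease-dead. The stretches of 8 proteases with a call between the populations are shown, because they hold the 3 histidines of the zinc site. The ninth called protease, Adamts19, also has 1 stretch, in the glycine form, which is not printed. They are 33 bases long, 5′ to 3′ along the coding strand, from GENCODE M21 transcripts on GRCm38, with the 3 histidine codons in capitals.
Mmp14: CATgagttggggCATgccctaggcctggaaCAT
Mmp19: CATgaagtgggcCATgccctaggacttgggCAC
Mmp9: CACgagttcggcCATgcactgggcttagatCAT
Adamts4: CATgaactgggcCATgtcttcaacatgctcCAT
Adamts9: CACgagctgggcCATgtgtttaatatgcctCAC
Adamts12: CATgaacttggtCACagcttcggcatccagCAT
Adamts3: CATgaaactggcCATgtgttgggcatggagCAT
Adamts17: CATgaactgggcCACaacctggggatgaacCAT
The stretch begins at codon 239 of Mmp14, 369 of Adamts4 and 398 of Adamts3. Mmp14 and Mmp19 share 25 of the 33 bases. Adamtsl5 and Timp1, which were also called, have no such stretch. A furin-type cleavage site (arginine, any residue, arginine or lysine, arginine) was searched for ahead of the zinc stretch, so Adamts8 was not searched. It was found in 10 of 19 Mmp genes, among them all 6 membrane-type members, and in 16 of the 17 Adamts genes searched. In the 13 Mmp genes that matched a conserved cysteine motif of the propeptide, only sites after that motif counted. The families were thus not counted alike.

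Most matrix protease and inhibitor genes had fold changes above 0 in CDH1+/THY1+ cells, but few passed the authors' test. By an adjusted p under 0.05 from DESeq2 in the authors' deposited table, 7 of the 42 members with an adjusted p were higher (16.7%) and 4 were lower (9.52%). Over all 19211 genes with an adjusted p the same rule called 33.5%, with 17.1% higher and 16.4% lower. The members' 26.2% in either direction lies below that share, and their higher calls are at the share of all genes. The higher genes were Mmp14, Mmp19, Adamts4, Adamts9, Adamts12, Adamtsl5 and Timp1, and the lower genes were Mmp9, Adamts3, Adamts17 and Adamts19. Of all 46 members 35 had a fold change above 0 (76.1%, against 50.6% of all rows), and their median log2 fold change was 0.26, against 0.01 over all rows of the authors' deposited table. Another 6 members, all with a fold change above 0, had an unadjusted p under 0.05 without a call. RNA of bulk samples cannot tell fewer cells of a type from less RNA per cell.

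**Figure D1:**
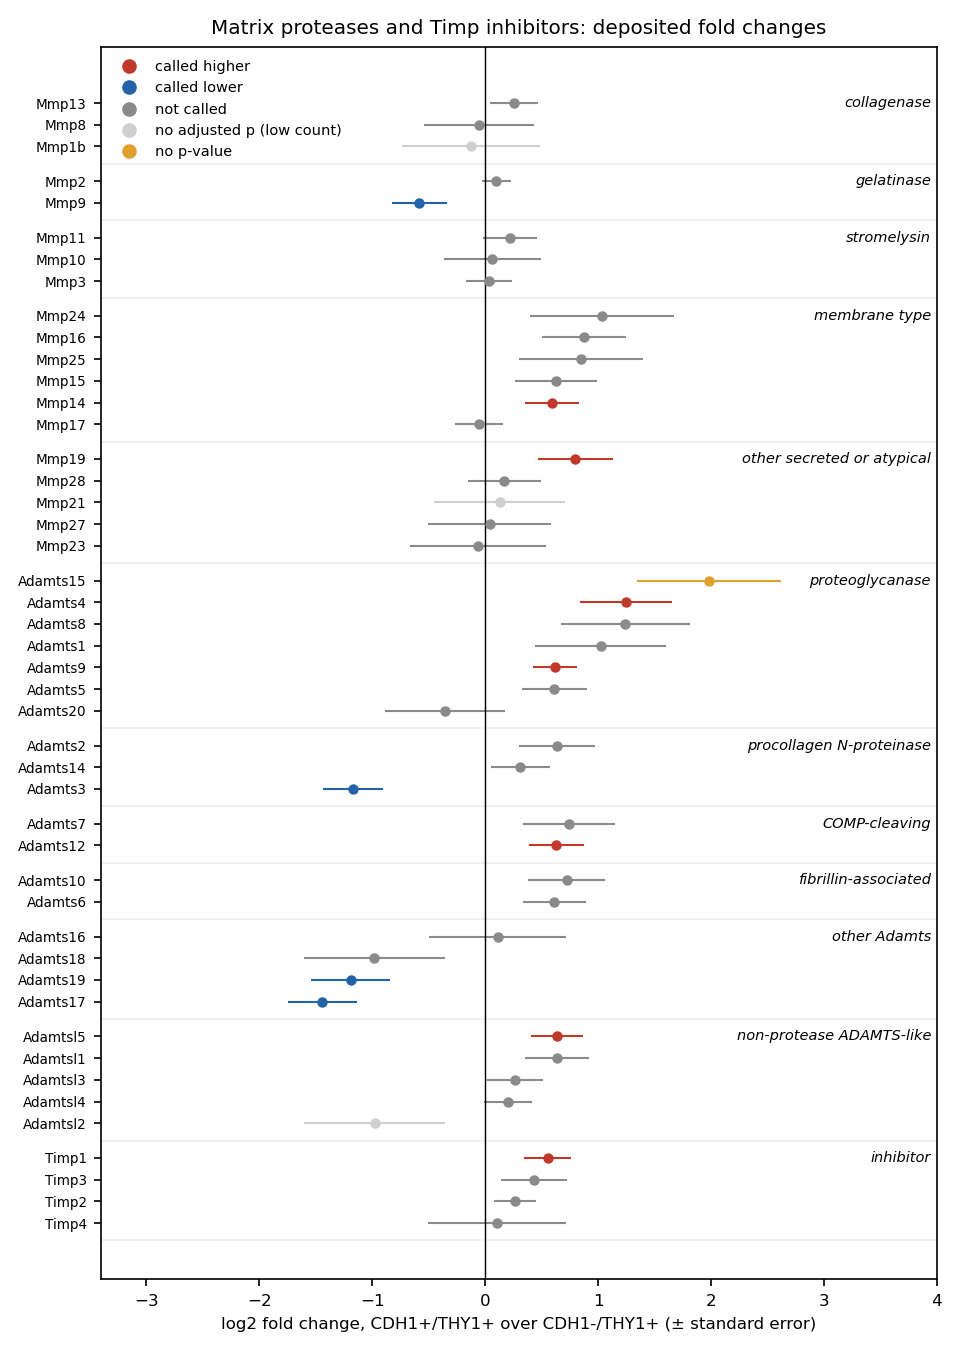
Log2 fold change of each of the 46 members, CDH1+/THY1+ over CDH1-/THY1+, with its standard error as a bar, grouped by role and coloured by the call in the authors' deposited table. The 7 called higher lie between 0.55 and 1.25, and the 4 called lower between -1.44 and -0.58.

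The table has no column per library, so the replicates of a gene cannot be set out by population. Its name alone gives the direction, since Cdh1 was not analysed here. Thy1, by which both populations were sorted, had 0.48 ± 0.18 at a mean count of 1319 in the authors' deposited table. The standard error of each gene is the only measure of spread. To judge by the standard errors, none of which exceeds 0.639, the fold changes are shrunken towards 0 and understate changes of genes with few reads.

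In level, the system was dominated by a few secreted genes. Per kilobase of exon, the highest mean normalised counts in the authors' deposited table, averaged over both populations, were those of Mmp3 (3815) and Mmp2 (3139). Next came Timp1 (1933), Timp2 (1810) and the proteoglycanase gene Adamts1 (1015), then Mmp14 (708), Timp3 (508) and Mmp19 (389). Errors of these mean levels are not in the table, so neighbours in this order cannot be separated. The 10 members with the highest mean counts held 87.3% of the summed counts of all 46. At the other end, 13 members had a mean count under 50, and 7 of these were under 10.

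**Figure D2:**
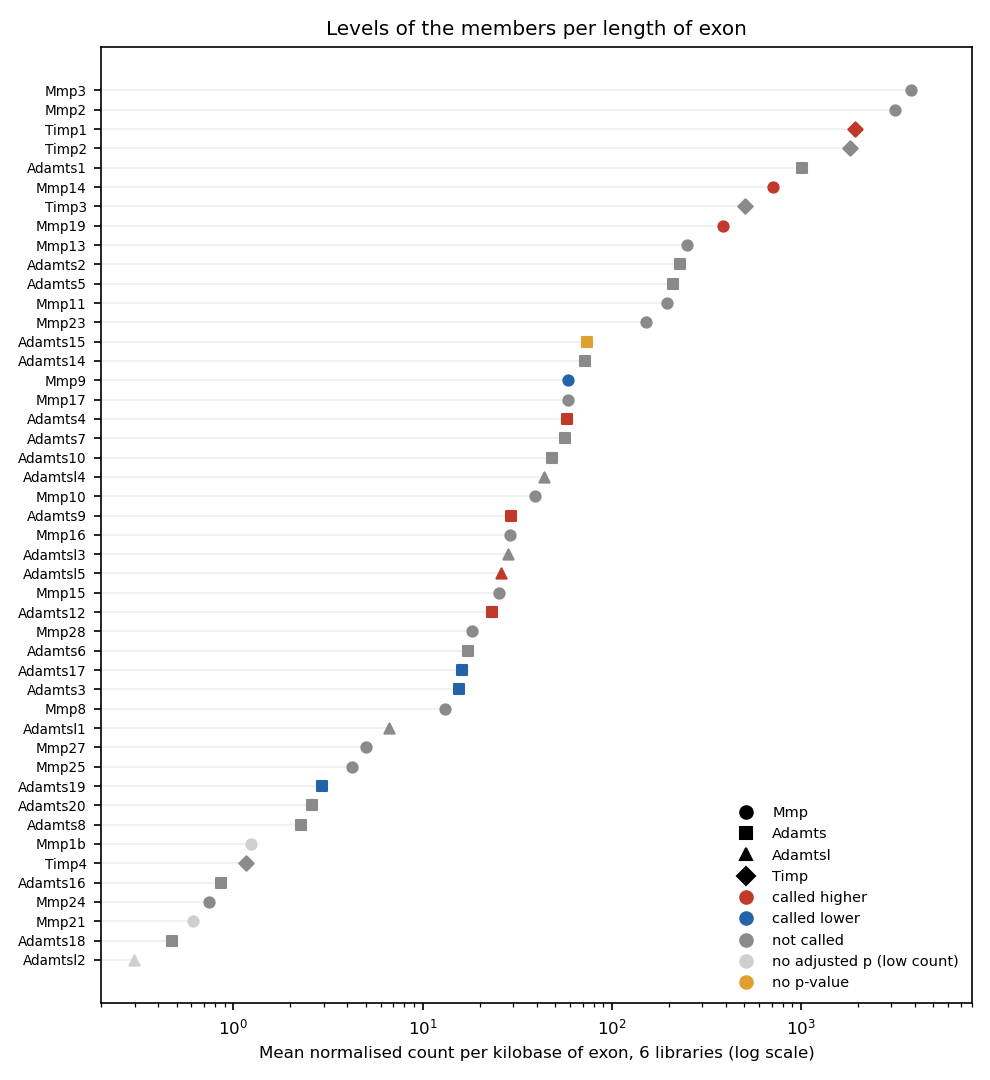
Mean normalised count per kilobase of exon (log axis) for each member over all 6 libraries, by family (symbol) and call (colour). Mmp3 and Mmp2 lead at 3815 and 3139, and the 3 lower Adamts genes lie at 16.2 or below.

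Among the secreted Mmp genes, the gelatinase Mmp9 was lower and its far more abundant relative Mmp2 was not called. Mmp9, which degrades denatured collagen and type IV collagen (chromosome 2, 164940780 to 164955850 in GRCm38), was 1.50-fold lower in the authors' deposited table (log2 fold change -0.58 ± 0.24, the second value being the standard error; adjusted p = 0.0473; mean count 207). Mmp2, the other gelatinase, reached a mean count of 10580 with a fold change of 0.10 ± 0.13 on the log2 scale (adjusted p = 0.602) in the authors' deposited table. Its fold change of 1.07 has a 95% interval, from the standard error, of 0.897 to 1.28. No test of the difference between the 2 gelatinases was run.

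The stromelysin Mmp3, which cuts matrix proteins and activates other pro-Mmps, had 0.03 ± 0.21 at a mean count of 6870 in the authors' deposited table. Its 95% interval ran from 0.772-fold to 1.36-fold. The collagenase Mmp13 had 0.25 ± 0.21 (mean count 664), and Mmp11, a stromelysin activated inside the cell by furin, 0.22 ± 0.24 (542) in the authors' deposited table. None of the 3 collagenases and 3 stromelysins was called, beside 33.5% of all genes, and the collagenase Mmp1b has no adjusted p.

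Mmp3, Mmp10, Mmp13 and Mmp1b share a place and a match of 7 letters in their promoters. They lie with Mmp8 and Mmp27 in a cluster of 6 members at 7272514 to 7581885 of chromosome 9 in GRCm38. The mean counts of these 6 ran from 1.79 to 6870, yet their log2 fold changes lay between -0.12 and 0.25 and 0 of them were called in the authors' deposited table. Promoters of collagenase and stromelysin genes are known for a binding site of AP-1, the Fos and Jun transcription factor. Its 7 letters TGANTCA, which read the same on both strands, were searched for in the 250 bases before each start in RefSeq's GRCm38.p6 promoters. RefSeq promoters were matched for 31 of the 46 members, and 4 of the 31 held the letters (12.9%), against 7.82% of all 27025 genes with a promoter. Whether the members' share differs from that of all genes was not tested. All 4 belong to the cluster, and their windows are shown because none of the other members searched had a match. Members without a RefSeq promoter were not searched. The letters are in capitals, and the windows run 5′ to 3′ on the gene's strand.
Mmp3, chr9:7445756-7445802, plus strand: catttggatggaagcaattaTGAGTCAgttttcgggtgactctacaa
Mmp10, chr9:7502259-7502305, plus strand: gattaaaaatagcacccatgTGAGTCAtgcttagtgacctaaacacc
Mmp13, chr9:7272459-7272505, plus strand: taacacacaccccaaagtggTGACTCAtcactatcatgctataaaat
Mmp1b, chr9:7388093-7388139, minus strand: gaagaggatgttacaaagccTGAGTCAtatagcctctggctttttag
The match began 46 bases before the start of Mmp3, 63 before Mmp10, 35 before Mmp13 and 93 before Mmp1b. A match of letters is a description and says nothing of binding.

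Of the membrane-type Mmp genes, whose products act at the cell surface, 1 of 6 was called. Mmp14, which cleaves fibrillar collagen and activates pro-Mmp2 (chromosome 14, 54431612 to 54445364), rose 1.51-fold in CDH1+/THY1+ cells in the authors' deposited table (0.59 ± 0.24, adjusted p = 0.0366, mean count 4222). Mmp16, a second transmembrane member, had a larger fold change of 0.88 ± 0.38 in the authors' deposited table and just missed the threshold (adjusted p = 0.054). Mmp15 had 0.63 ± 0.36 and the GPI-anchored Mmp17 -0.05 ± 0.22, both not called in the authors' deposited table. The membrane-type group had a median log2 fold change of 0.74, the same measure being 0.26 over all members.

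Mmp19, a secreted protease that cuts basement membrane proteins (chromosome 10, 128790910 to 128800824), rose 1.74-fold in the authors' deposited table (0.80 ± 0.33, adjusted p = 0.0452, mean count 1374). Of its exon bases, 22.3% overlap Tmem198b on the other strand, and whether the counting used strand is not given in the sources used here. Mmp23 had a mean count of 353 but a log2 fold change of -0.06 ± 0.60 in the authors' deposited table, with a standard error at percentile 100 among the 200 genes of nearest mean count. Its 95% interval, 0.422-fold to 2.18-fold, leaves its direction undetermined.

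The proteoglycanases, ADAMTS enzymes that cut aggrecan and versican, had the highest median of any role group, 1.03 on the log2 scale over 7 genes. That median is the value of Adamts1, which was not called. Of the 6 with an adjusted p, 2 were called (33.3%), both higher. Over all genes 33.5% were called in either direction and 17.1% higher. Among genes of nearest mean count, the standard errors of Adamts1, Adamts4, Adamts5 and Adamts15 ranked at percentiles 97 to 100. That of Adamts9 ranked at 54.5. Whether the role groups differ was not tested. Adamts4 (chromosome 1, 171250421 to 171260637) rose 2.38-fold in the authors' deposited table (1.25 ± 0.41, adjusted p = 0.0088, mean count 278). Adamts9 (chromosome 6, 92772699 to 92943492) rose 1.54-fold in that deposited table (0.62 ± 0.20, adjusted p = 0.00697, mean count 439). Of the exon bases of Adamts9, 9.18% overlap A730049H05Rik on the other strand.

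Adamts15 had the highest fold change of all members, 1.98 ± 0.64 at a mean count of 770, with no p-value in the authors' deposited table. DESeq2 leaves the p-value empty where 1 library stands far from the others of its group. Of the 102 rows without a p-value, 98 had a fold change above 0, and 40 had a mean count of at least 100 in the authors' deposited table. Adamts1 was the proteoglycanase of highest level, and its 1.03 ± 0.58 did not pass (adjusted p = 0.163, mean count 5381). Its 95% interval in the authors' deposited table ran from 0.926-fold to 4.47-fold. Adamts5, its neighbour on chromosome 16, had 0.61 ± 0.29 (adjusted p = 0.0837, mean count 2268) in the authors' deposited table.

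**Figure D3:**
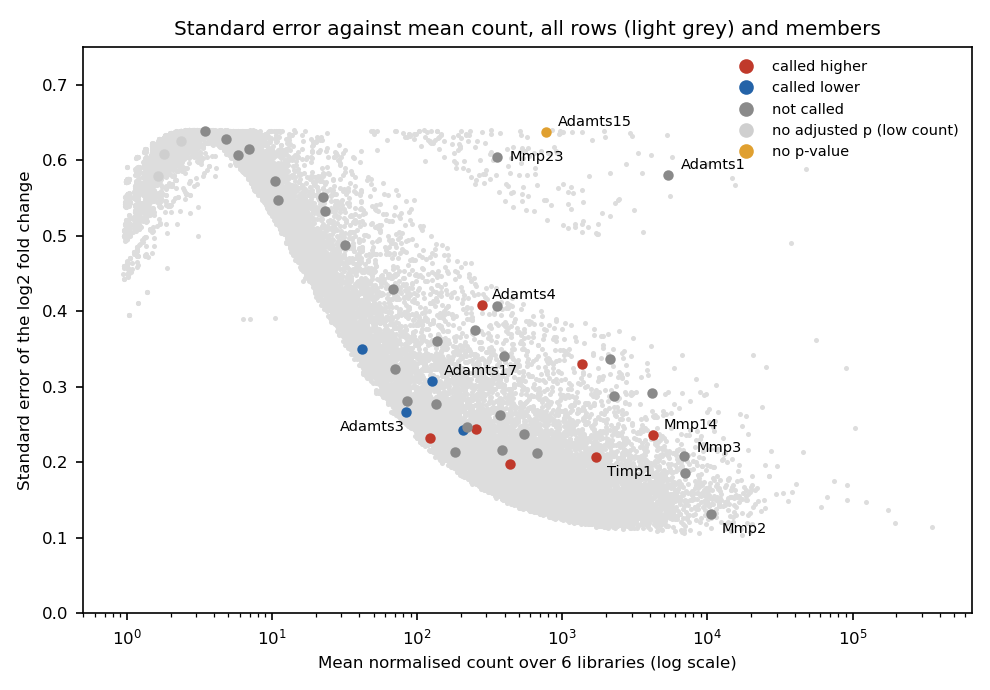
Standard error of the log2 fold change against mean normalised count (log axis), with all 22432 rows in light grey and the 46 members coloured by call. Adamts15, Mmp23 and Adamts1 sit at 0.58 to 0.64, above most rows of like count, while Mmp2 lies at 0.13.

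The spread of these genes was large as a group. Over 33 members, those whose mean count reached 50, the median percentile of the standard error among genes of nearest mean count was 82, and 12 of the 33 were in the top 10%. By the same measure the median percentile was 94 for fibroblast, 84.8 for germ cell, 98 for Sertoli cell and 83.3 for smooth muscle markers in the authors' deposited table. It was 79 for the 3 macrophage markers and 69.5 for the 1 endothelial marker that could be ranked. The Adamtsl family differed from the other members, with a median percentile of 24 over 4 genes.

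Adamts3, Adamts17 and Adamts19 went the other way and had the largest decreases among the members that were called. Adamts17, which is known for a role in fibrillin microfibrils (chromosome 7, 66839735 to 67153171), fell to -1.44 ± 0.31 in the authors' deposited table, 2.72-fold lower (adjusted p = 2.54e-05, mean count 126). Adamts3, a procollagen N-proteinase that also activates the lymphatic growth factor VEGF-C (chromosome 5, 89677087 to 89883334), fell to -1.17 ± 0.27 in the authors' deposited table, 2.25-fold lower (adjusted p = 8.96e-05, mean count 84.2). Adamts19 (chromosome 18, 58836667 to 59054060) fell to -1.19 ± 0.35 in the authors' deposited table, 2.28-fold lower (adjusted p = 0.00332, mean count 41.3). These were the 3 members of 11 called that also passed a Benjamini-Yekutieli adjustment, a stricter rule that allows any dependence between genes (adjusted p of 0.0013, 0.000374 and 0.0456 for Adamts3, Adamts17 and Adamts19). All 7 higher members and Mmp9 missed it, the nearest being Adamts9 at 0.0942 and Adamts4 at 0.118. Germ cell markers, among them Dazl and Ddx4 at mean counts of 14797 and 4419, moved in the same direction as Adamts3, Adamts17 and Adamts19. Of 14 such markers 12 were lower (85.7%, against 16.4% of all genes) and 0 higher in the authors' deposited table. The part of germ cells in the decreases was not tested.

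The 2 relatives of Adamts3 that also trim procollagen were not called. Adamts2 had 0.64 ± 0.34 (mean count 2146) and Adamts14 had 0.31 ± 0.26 (373) in the authors' deposited table. Per kilobase of exon Adamts2 (230) and Adamts14 (71.7) stood above Adamts3 (15.5). Adamts3, the called gene, was thus the one of lowest level in this role, and the differences between the 3 fold changes were not tested.

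Of the 2 members that cleave cartilage oligomeric matrix protein, Adamts12 (chromosome 15, 11064790 to 11349231) rose 1.55-fold in the authors' deposited table (0.63 ± 0.24, adjusted p = 0.0308, mean count 253). Adamts7 stood at 0.75 ± 0.41 in the authors' deposited table without a call (adjusted p = 0.145). The fibrillin-associated Adamts6 and Adamts10 had 0.61 ± 0.28 and 0.72 ± 0.34, with adjusted p-values of 0.0713 and 0.085 by DESeq2 in the authors' deposited table.

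Adamtsl proteins resemble ADAMTS proteases without the catalytic part and bind to matrix, several of them to fibrillin microfibrils. Adamtsl5 (chromosome 10, 80339110 to 80348412) rose 1.56-fold in the authors' deposited table (0.64 ± 0.23, adjusted p = 0.02, mean count 123). Adamtsl1 had a like value in the authors' deposited table, 0.64 ± 0.28, but did not pass (adjusted p = 0.0637). Adamtsl3 and Adamtsl4 stood lower in the authors' deposited table, at 0.26 ± 0.25 (mean count 219) and 0.20 ± 0.21 (183), and were not called.

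Of the 4 inhibitors, Timp1 was called. Timp1, a secreted inhibitor of most Mmps that also acts as a growth factor (chromosome X, 20870166 to 20874735), rose 1.47-fold in the authors' deposited table (0.55 ± 0.21, adjusted p = 0.0242, mean count 1717). Timp2, the partner of Mmp14 and pro-Mmp2, had 0.26 ± 0.19 at a mean count of 7051 in the authors' deposited table (adjusted p = 0.282). Its 95% interval ran from 0.932-fold to 1.55-fold. Timp3, which binds to matrix and also inhibits several ADAMTS enzymes, had 0.44 ± 0.29 (adjusted p = 0.251, mean count 4136) in the authors' deposited table. Of its exon bases 21.3% overlap exons of Syn3 on the other strand, a gene that fell to -1.21 ± 0.36 in that deposited table. Timp4 had 0.11 ± 0.61 (adjusted p = 0.919) at a mean count of 6.90 in the authors' deposited table. All 4 inhibitors had fold changes above 0, and for 3 of them the interval included no change.

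For 8 members with few reads, the whole reads of each library could be worked out from the mean count, since 1 read in a library adds a fixed amount to it. Which population a library belongs to is not known and was not inferred. In the order of rising size factor, Adamts8 had 7, 21, 4, 3, 20 and 8 reads. Libraries 2 and 5 thus held 21 and 20 of its 63 reads. Timp4 had 6, 2, 8, 5, 5 and 16 reads, with the most in library 6. Adamts18 had 11, 2, 3, 7, 3 and 2 reads, and Adamtsl2 had 4, 0, 3, 5, 0 and 2, so neither was high in libraries 2 and 5. Mmp24, a transmembrane member known from neural tissue, had 1, 4, 2, 1, 9 and 4 reads, with the most in library 5. Adamts16 had reads in every library, from 3 to 10. Mmp1b and Mmp21 had 11 and 10 reads in all 6 libraries together. Their fold changes in the authors' deposited table were 1.24 ± 0.57 for Adamts8, 1.03 ± 0.64 for Mmp24 and -0.98 ± 0.63 for both Adamts18 and Adamtsl2 on the log2 scale, with no call.

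**Figure D4:**
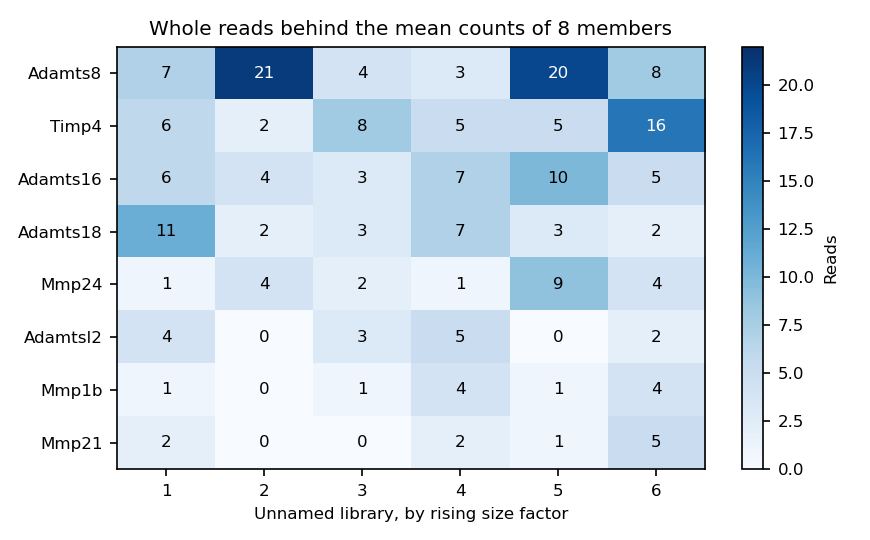
Whole reads in each of the 6 unnamed libraries (columns, by rising size factor) for 8 members with few reads (rows). Adamts8 has 21 and 20 reads in libraries 2 and 5 and 3 to 8 in the others, and no library is at 0 for Timp4.

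The members whose values have not been given had low counts and no call. Mmp8, Mmp10, Mmp25, Mmp27, Mmp28 and Adamts20 had mean counts from 11.1 to 70.6. Their log2 fold changes ran from -0.35 ± 0.53 for Adamts20 to 0.85 ± 0.55 for Mmp25 in the authors' deposited table.

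A list of 36 genes was taken for the activation, restraint or clearance of these enzymes, or for procollagen processing. Of the 34 with an adjusted p, 13 were higher (38.2%) and 2 lower (5.88%), beside 17.1% and 16.4% of all genes. The median log2 fold change of the list was 0.24. Plau, the plasminogen activator urokinase, which acts upstream of several pro-Mmps, had -0.14 ± 0.28 in the authors' deposited table (adjusted p = 0.746). Bsg, known as an inducer of Mmp genes in neighbouring fibroblasts, rose 1.34-fold in the authors' deposited table (0.42 ± 0.11, adjusted p = 0.000677). Lrp1, the endocytic receptor that clears Mmp and Timp complexes, rose 1.27-fold and the collagen-binding Sparc 1.52-fold in the authors' deposited table, with adjusted p-values of 0.0258 and 0.00853 by DESeq2. Pcolce, the enhancer of procollagen C-proteinase, rose 1.54-fold in the authors' deposited table (adjusted p = 0.0337). Reck, a membrane-anchored inhibitor of Mmp14, Mmp2 and Mmp9, had -0.18 ± 0.19 and the proprotein convertase Furin 0.41 ± 0.18, both without a call in the authors' deposited table. The lower partners, named after their values were seen, were Tll2, a tolloid-like protease (-1.86 ± 0.59), and Papln, an ADAMTS-like matrix protein (-1.36 ± 0.45). They had only 12.4 and 21.9 normalised reads on average in the authors' deposited table.

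In a list of substrates, 7 of 21 genes were higher (33.3%) and 0 lower, with a median of 0.51. Over all genes with an adjusted p the shares were 17.1% higher and 16.4% lower. Where the mean count reached 100, as in 17 of the 21 substrates, 22.6% of all genes were higher and 21.7% lower. Fn1 and the basement membrane genes Hspg2 (perlecan) and Lamc1 (laminin gamma chain) rose 1.65-fold, 2.55-fold and 2.04-fold, and Fbn1 1.40-fold, in the authors' deposited table. Col1a1, Col1a2, Col3a1, Dcn, Fbn1 and Fn1 stand in both the substrate and the fibroblast marker list, so these lists are not independent. Of the proteoglycan substrates, versican, Vcan, was at 1.08 ± 0.33 (adjusted p = 0.00495) and aggrecan, Acan, not called, at -0.75 ± 0.33 (adjusted p = 0.0643) in the authors' deposited table. In the Adam family, membrane-anchored relatives of the ADAMTS enzymes, 2 of 17 were higher (11.8%) and 0 lower, with a median of 0.05. These were Adam23 at 1.72 ± 0.22 and Adam19 at 1.57 ± 0.28 in the authors' deposited table.

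**Figure D5:**
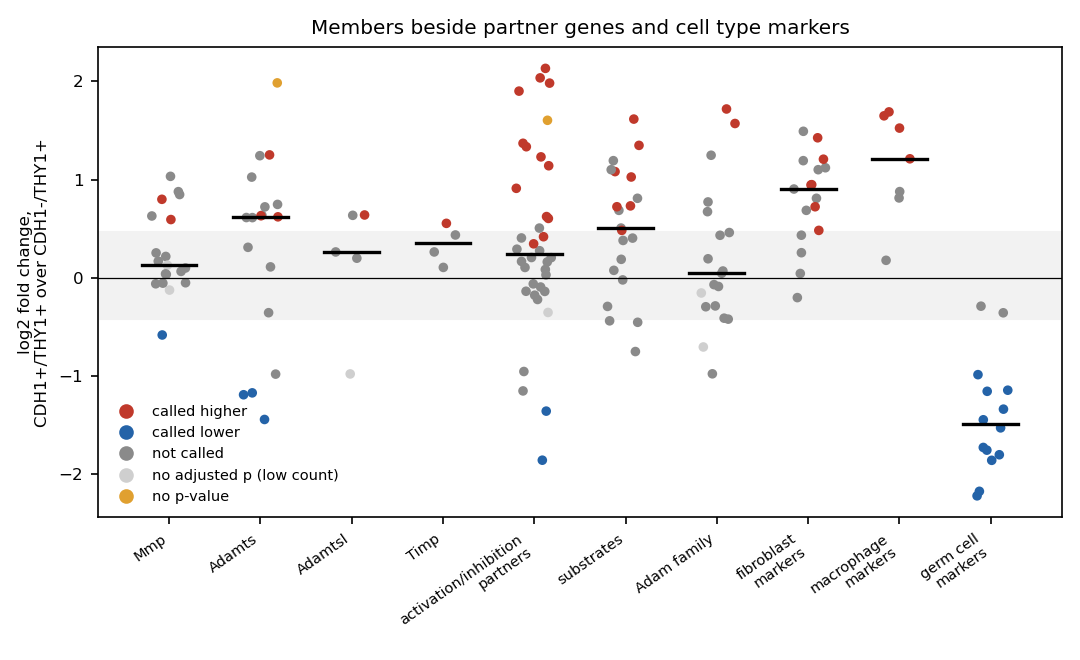
Log2 fold changes of single genes (points, coloured by call) in the 4 families, 3 partner lists and 3 marker lists, with each median as a black line and the range between the quartiles of all rows in grey. Adamts genes have a median of 0.62 and Mmp genes 0.13, against 0.90 for fibroblast markers and -1.49 for germ cell markers. The substrate and fibroblast lists share genes.

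Markers of fibroblasts, macrophages and smooth muscle mostly had fold changes above 0, while those of Sertoli and endothelial cells were mixed. Over all genes with an adjusted p, 17.1% were higher and 16.4% lower. Where the mean count reached 100, these shares were 22.6% and 21.7%. Fibroblast markers had 6 of 17 higher (35.3%) and 0 lower in the authors' deposited table. Of their 17 fold changes 16 were above 0, with a median of 0.90, and none of the 17 was near a mean count of 0 (lowest 81.4). Macrophage markers had 4 of 7 higher (57.1%) in the authors' deposited table and a median of 1.21. Macrophages are known to make Mmp9 and Timp1, of which Timp1 was called higher and Mmp9 lower. Cd68 and Mrc1, in the authors' deposited table with mean counts of 134 and 114, were higher, as were Ptprc at 13.9 and Aif1 at 3.23. Cd14, at a mean count of 61.2, had 0.18 ± 0.32 and was not called. Itgam at 4.81 and Fcgr1 at 2.62 also missed the threshold. Smooth muscle markers had 3 of 6 higher (50%), Sertoli cell markers 2 of 8 higher (25%) and 1 lower (12.5%), and endothelial markers 0 of 3 called. The part of these cells in the changes of the proteases and inhibitors was not tested, and a summed level for each population cannot be given without values per library.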

How the data were processed

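The 1 file used is the authors' table of DESeq2 results for CDH1+/THY1+ against CDH1-/THY1+, 3 samples each. Without stating their roles, the submitters' processing notes list Trimmomatic 0.32, TopHat2 2.1.1 and the build GRCm38.p4. The same notes list featureCounts of Subread 1.5.0-p3, DESeq2 1.12.3 and, for R, version 3.3.1. Model formula, annotation and strand setting of the counting are not given in the sources used here. Per the file headers, the deposited columns are a mean normalised count over all libraries (a signal that is never negative), a log2 fold change with its standard error, a Wald statistic (a score), a p-value and an adjusted p-value. Depth per sample is unknown.

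Members were found by Ensembl identifier in GENCODE M21 (GRCm38, symbols for 22317 of 22432 rows). The members, roles and lists were chosen with earlier results of these data known. Calls are the authors' two-sided Wald test at an adjusted p under 0.05. Adjusted p-values are empty for 3221 rows. Of the members, 1 has no p-value, and 3 with a mean count of at most 2.37 have no adjusted p. Levels were divided by the union of exons. Intervals are the fold change ± 1.96 standard errors and cover the authors' model error only. From the spacing of mean counts under 1.6, what 1 read adds was found for 6 libraries. All 1734 such rows were then matched by whole reads, at a looser tolerance than was used for the members. Size factors ran from 0.913 to 1.08. The reads of 8 members followed from a single match, to within 3e-09 of the mean count except for Adamts8, where the tolerance was wider. Adjustments, error ranks and this recovery were tested on simulated data. Every called member and all Timp genes have full statistics, other members with a mean count of at least 100 their values, the rest a range. For each partner list the 4 called genes of highest mean count were named, with Reck, Bsg, Furin and Plau. Some items are not reported here. Software was Python 3.11.15, numpy 2.4.6 and pandas 2.3.3. The labels do not say whether samples came from separate animals, so p-values measure the spread between these samples.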

Additional observations from a re-analysis of the deposited data

How the results depend on the processing

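With an adjusted p under 0.01 in place of 0.05, 2 of the 7 higher members kept their call (Adamts4 and Adamts9), and the counts were 0 for higher Mmp, lower Mmp, Adamtsl and Timp genes. With a Benjamini-Yekutieli adjustment 0 members were higher, 0 in each family, and 0 Mmp genes were lower, while 8 partners and 4 substrates stayed higher and 0 partners lower. With at least a 2-fold change 1 member was higher, an Adamts gene, with 0 Mmp in either direction, 0 Adamtsl, 0 Timp, 8 partners and 4 substrates. A Benjamini-Hochberg adjustment recomputed over every p-value gave 1 higher and 0 lower Mmp genes, as Mmp19 (0.0554) and Mmp9 (0.058) lost their call. With a mean count of at least 100, 2 members were lower, 1 of them an Adamts gene, and 0 partners. Leaving out members whose standard error ranked in the top 10% among genes of like mean count, 4 members, 0 Mmp genes, 4 substrates and 1 Adam gene were higher. Without genes whose exons overlap another gene, an alternative chosen after seeing the data, 4 members were higher, 1 Mmp and 1 Adamts gene among them. No fold change turned direction, since these settings change calls only.

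No paired analysis was possible because the table holds no value per sample, though both populations carry the same 3 culture names. For the same reason leaving out a replicate, another normalization and a count test were not run, and whether 1 library decides a call is not known. Among the 11 called members, Benjamini-Yekutieli ended 8 calls, the 0.01 threshold 6 and the recomputed Benjamini-Hochberg 2.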
